A study of Mus musculus with 12 samples.

Results

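A set of 55 genes of the lysosome was followed with age in the mouse hippocampus: 18 hydrolases, 2 cofactors that are delivered with them (Grn and Psap), 6 membrane proteins, 3 sorting receptors, 2 transcription factors and 24 genes of the proton pump. The first 31 were taken by gene symbol from a fixed list, and the pump genes were every symbol that begins with Atp6v0 or Atp6v1, together with Atp6ap1 and Atp6ap2. The rule reads symbols and no measured value, but it was drawn up with earlier results of these data known. All 55 were among the 29957 named genes of the microglia table, and 49 were among the 14663 named genes of the hippocampus table.

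The lysosome is the acidic compartment in which cells break down lipids, sugar chains, proteins and engulfed debris. Its soluble hydrolases are tagged with mannose 6-phosphate and carried in by sorting receptors, and they need the low pH that the proton pump, the V-ATPase, maintains by coupling ATP hydrolysis in its peripheral V1 sector to proton transport through its membrane V0 sector. The transcription factors Tfeb and Tfe3 activate many lysosomal genes through a short promoter sequence known as the CLEAR element. Microglia, the resident macrophages of the brain, use this system to digest what they take up, and inherited loss of many of these enzymes causes lysosomal storage disease with damage to the brain.

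The libraries came from C57BL/6 mice. Hippocampal microglia were sampled at 24 months and at 3 months, and whole (bulk) hippocampus at 18 months and at 6 months, with 3 samples in each of the 4 groups. The labels give no genotype, treatment or sex, do not tell how microglia were purified, and never state whether each library had its own mouse; the p-values therefore measure only the spread between these samples. RNA was primed with oligo-dT, amplified and tagmented without a strand mark.

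The promoters are shown first because they carry the sequence that the regulators Tfeb and Tfe3 read. A RefSeq window of 300 bases (GRCm38.p6; 250 before and 50 after the annotated start) was found for 45 of the 55 genes. The core sequence CACGTG, which reads the same on both strands, was in 13 of these 45 (28.9%), against 8.09% of the 27025 genes in the promoter table. The longer sequence TCACGTGA, which lies at the middle of the CLEAR element, also reads the same on both strands and contains the core, was in 7 of the 45 (15.6%), against 1.12% of all genes. By class, the core was in 5 of 17 hydrolase promoters (29.4%), 3 of 5 membrane protein promoters (60%) and 4 of 18 pump promoters (22.2%). The 7 genes with the longer sequence were Gla among the hydrolases, Cln3 and Mcoln1 among the membrane proteins, Igf2r among the sorting receptors, and Atp6v0e, Atp6v0d1 and Atp6v1a in the pump. The windows of Grn, Psap, Tfeb and Tfe3 held neither sequence, which says only that these letters are not in these 300 bases. A match is a description of the sequence and was not tested as a site. One hydrolase, both membrane proteins and the pump gene with the highest microglial level among those 7 are printed here, 5′ to 3′ on the gene's strand, with each match in capitals. They are Atp6v0e (chr17:26676146-26676445, plus strand), Cln3 (chr7:126583187-126583486, minus strand), Mcoln1 (chr8:3500269-3500568, plus strand) and Gla (chrX:134600956-134601255, minus strand).
Atp6v0e: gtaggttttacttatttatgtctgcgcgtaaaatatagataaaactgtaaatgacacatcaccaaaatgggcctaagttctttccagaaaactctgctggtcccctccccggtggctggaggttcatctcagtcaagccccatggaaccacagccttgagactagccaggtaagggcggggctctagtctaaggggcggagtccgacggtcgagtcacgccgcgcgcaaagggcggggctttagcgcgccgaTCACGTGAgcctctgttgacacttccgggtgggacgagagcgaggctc
Cln3: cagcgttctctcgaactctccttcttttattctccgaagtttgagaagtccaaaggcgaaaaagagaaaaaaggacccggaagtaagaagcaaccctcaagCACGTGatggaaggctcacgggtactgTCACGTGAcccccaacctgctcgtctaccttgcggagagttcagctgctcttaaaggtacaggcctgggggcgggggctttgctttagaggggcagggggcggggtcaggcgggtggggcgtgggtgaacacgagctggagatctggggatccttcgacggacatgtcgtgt
Mcoln1: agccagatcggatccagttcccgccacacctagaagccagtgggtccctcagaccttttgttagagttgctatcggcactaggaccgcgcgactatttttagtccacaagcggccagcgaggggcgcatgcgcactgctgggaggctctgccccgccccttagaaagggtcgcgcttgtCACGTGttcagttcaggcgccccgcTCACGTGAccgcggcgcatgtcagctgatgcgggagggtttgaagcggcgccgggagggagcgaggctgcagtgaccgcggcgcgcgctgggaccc
Gla: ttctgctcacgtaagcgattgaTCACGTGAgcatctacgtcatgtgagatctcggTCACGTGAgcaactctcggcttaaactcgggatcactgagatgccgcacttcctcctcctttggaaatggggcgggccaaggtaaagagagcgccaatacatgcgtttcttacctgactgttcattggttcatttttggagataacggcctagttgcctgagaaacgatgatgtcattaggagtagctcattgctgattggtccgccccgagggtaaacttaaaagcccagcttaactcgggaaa
In Gla both copies were the full TCACGTGA, whereas Cln3 and Mcoln1 each held 1 full copy and 1 further core.

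The libraries differed in ways that bear on every comparison in microglia. The 6 microglia libraries held 8067905 to 14217018 estimated counts. All 18 microglia markers had counts in every one of them, with summed levels of 67139, 67037 and 85501 CPM (counts relative to library size) in the 24-month replicates 1, 2 and 3, against 94107, 92345 and 88317 CPM in the 3-month replicates. A list of 20 immediate early and dissociation genes summed to 35143 and 37161 CPM in the 24-month replicates 1 and 2, but to 1793 CPM in the 24-month replicate 3 and to 1361 to 2183 CPM at 3 months. The 13 mitochondrial mRNAs summed to 9061 and 8972 CPM in the same pair, and to 3195 CPM in the third 24-month library and 2501 to 3044 CPM at 3 months. Markers of monocytes and neutrophils (11 genes, 3 of them above 0 in every library) summed to 3329 CPM in the 24-month replicate 1, 706 and 573 CPM in the other 24-month libraries and 563 to 634 CPM at 3 months. Csf3r alone gave 576, 656 and 569 CPM of these sums in the 24-month replicates 1 to 3, and 553 to 628 CPM at 3 months. The neutrophil gene S100a8 was at 1289, 21.5 and 0.380 CPM at 24 months, and at most 0.373 CPM at 3 months. Neuron markers (12 genes, 2 above 0 in every library) summed to 33.7 to 130 CPM at 24 months, against 12.2 to 44.7 CPM at 3 months. Of the sums above, those of the microglia markers lay lower and those of the mitochondrial mRNAs higher in every 24-month library than at 3 months. The sums of 2 further lists separated the ages: astrocyte markers (10 genes, 3 above 0 in every library) were at 346, 461 and 333 CPM at 24 months, against 130, 244 and 275 CPM at 3 months, and endothelial markers (10 genes, 2 above 0 in every library) were at 51.9, 144 and 67.0 CPM, against 23.5, 45.6 and 24.7 CPM. Slc1a3 alone gave 298, 384 and 285 CPM of the astrocyte sum at 24 months, against 110, 224 and 246 CPM at 3 months. Mural cell markers (8 genes, 1 above 0 in every library) summed to 295, 38.8 and 0.759 CPM in the 24-month replicates 1 to 3, against 0.299 to 0.873 CPM at 3 months. The 3-month replicate 1 had Pearson correlations of 0.740 and 0.749 with its group, against 0.885 between the other 3-month libraries. The 24-month replicate 1 was at 0.790 and 0.745 with its group, against 0.833 between the other 24-month libraries. The 3-month replicate 1 had 11789 genes with a count, against 12457 to 13839 in the other libraries. It alone held the lowest value of 29.2% of all genes tested, against 8.34% to 22.2% for each other library. The part that these differences have in the results below was not tested. Log2 changes without the 24-month replicates 1 and 2 are given for the named genes whose groups did not overlap and for those described in most detail; they set 1 old library against 3 young ones and carry no test.

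In microglia no lysosomal gene passed the test between 24 and 3 months. Of the 55 genes, 47 had enough counts to be tested, and edgeR's quasi-likelihood test called 0 of them higher and 0 lower at a Benjamini-Hochberg adjusted p of 0.05, with 0.715 as the smallest adjusted p. It called 0 of all 10663 genes tested, a background of 0% in either direction. At an unadjusted p under 0.05 it gave 2 of the 47 as lower and 0 as higher, against 2.02% and 3.52% of all genes. DESeq2, which tested 51 genes of the set, called 0 of them after adjustment, with 0.150 as the smallest adjusted p. The authors' deposited table, which calls 57 genes lower (0.472%) and 186 higher (1.54%) over all genes with an adjusted p, calls 0 of these genes, and its smallest adjusted p among them is 0.101, for Grn. The log2 change (24 minus 3 months) was below 0 for 30 of the 47 genes, against 49.5% of all genes tested, and the median was -0.15, against 0.01 over all genes. With the 24-month replicates 1 and 2 left out, 17 of the 47 were below 0 and the median was 0.09. With the 24-month replicate 3 left out the median was -0.32.

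**Figure D1:**
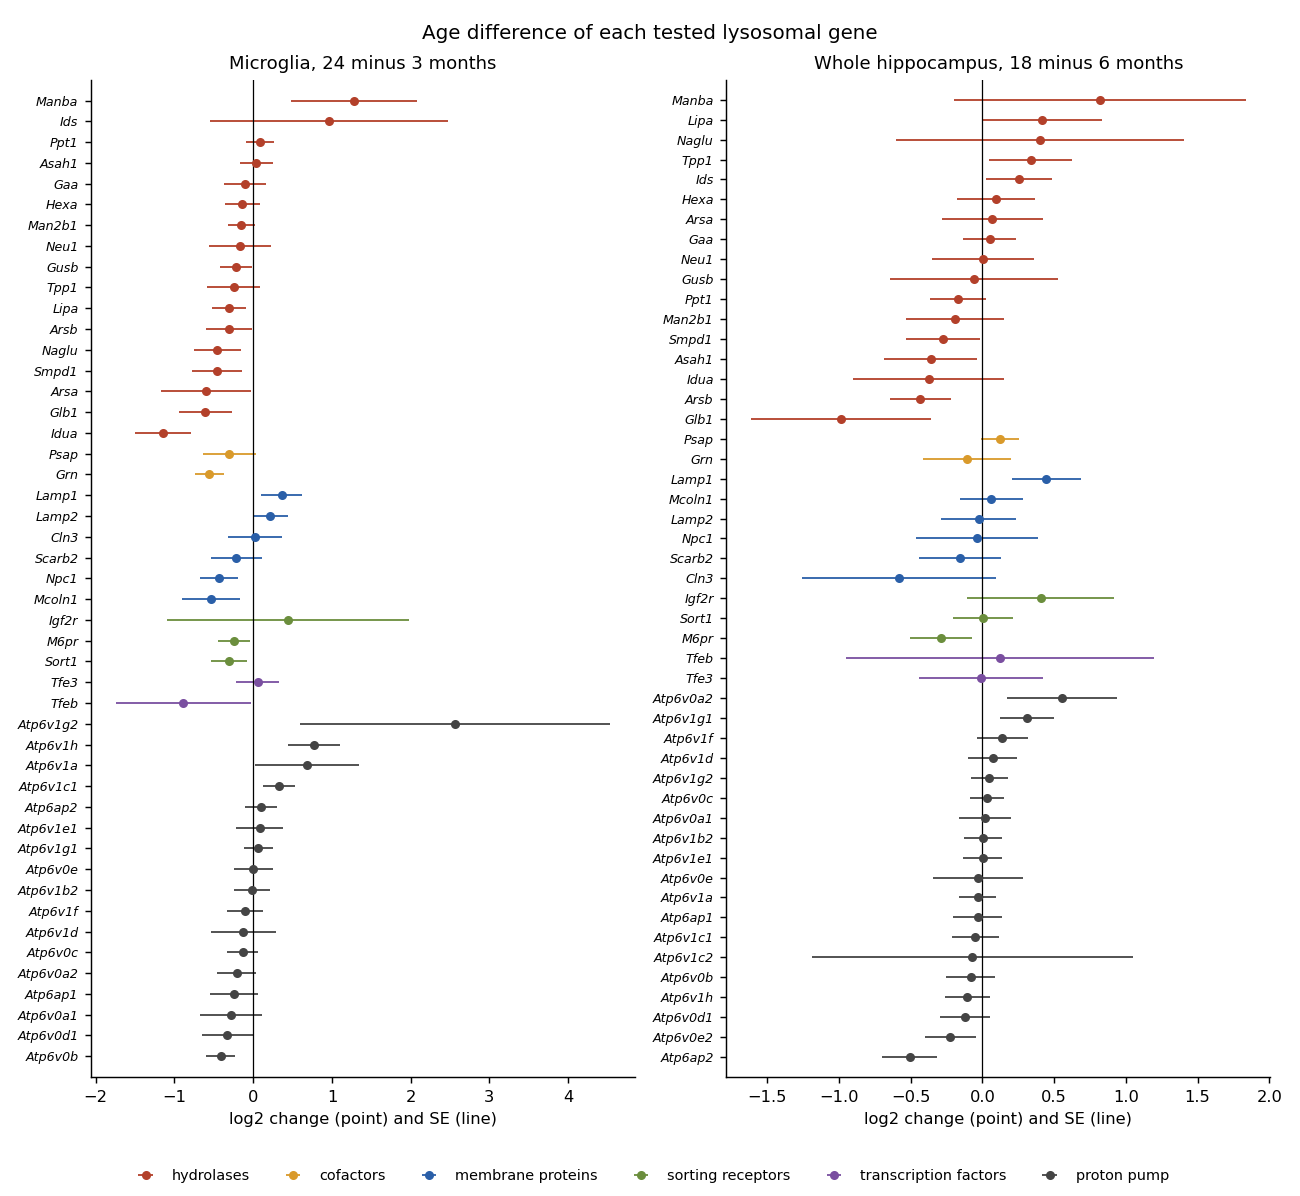
Log2 change of each tested lysosomal gene (x axis; points, with lines for the standard error) in microglia (24 minus 3 months, left, 47 genes) and whole hippocampus (18 minus 6 months, right, 49 genes), ordered by class and size. In microglia 13 of 17 hydrolases lie below 0 while the pump genes fall on both sides; in hippocampus 25 of 49 genes lie below 0.

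The hydrolases lay mostly below 0 in microglia, none past the test. Of 17 tested, 13 had a log2 change below 0 and 4 above it, with a median of -0.22. The 3 old values lay wholly below the 3 young ones for Idua and Lipa, and for no hydrolase wholly above, against 6.18% of all genes below and 7.26% above. Their summed level, corrected for transcript length, was 2851, 3214 and 4384 TPM (transcript abundance) in the 24-month replicates 1 to 3, against 3601, 4142 and 3964 TPM at 3 months, so the groups overlapped. With the 24-month replicates 1 and 2 left out, 5 of the 17 were below 0 and the median was 0.06. The 24-month replicate 1 alone held the lowest value of 9 of the 17 hydrolases (52.9%), against 22.2% of all genes tested, and the 24-month replicate 3 held the lowest value of 0 and the highest of 4. Against the mean of the 3-month libraries, the median hydrolase was at -0.46, -0.19 and 0.07 in the 24-month replicates 1, 2 and 3 on the log2 scale.

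Idua, the α-L-iduronidase that cuts heparan and dermatan sulfate, had the lowest log2 change among the hydrolases. It was at 44.6, 91.3 and 116 CPM at 24 months, against 179, 205 and 176 CPM at 3 months. Every old library was below every young one, and the log2 change was -1.15 ± 0.36 (SE), with an unadjusted p of 0.0133 and an adjusted p of 0.715 (edgeR). With the 24-month replicates 1 and 2 left out it was -0.69. Idua shares 141 exon bases with Slc26a1 and 56 with Dgkq on the opposite strand, and reads from these genes cannot be told apart there.

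Lipa, the acid lipase that frees cholesterol and fatty acids from engulfed lipid, was at 158, 213 and 218 CPM at 24 months, against 237, 272 and 220.0 CPM at 3 months. The groups did not overlap, but the highest old and the lowest young value were close, and the log2 change was -0.31 ± 0.21 (adjusted p = 0.993, edgeR). It was -0.18 without the 24-month replicate 1 and -0.16 without replicates 1 and 2. Glb1, the β-galactosidase, was at 85.4, 61.6 and 143 CPM at 24 months and at 135, 156 and 153 CPM at 3 months, with a log2 change of -0.61 ± 0.34. Here the third old library stood among the young ones, and the log2 change without the other two was -0.046. Naglu, which acts on heparan sulfate, was at 115, 181 and 254 CPM at 24 months and at 269, 262 and 225 CPM at 3 months, with the same overlap (log2 change -0.46 ± 0.30, and 0.0073 without the 24-month replicates 1 and 2). Manba, the β-mannosidase, had a higher mean at 24 months, with 47.4, 73.0 and 90.9 CPM against 4.48, 51.6 and 31.2 CPM at 3 months. Its log2 change of 1.28 ± 0.80 rested in part on the 1 low young library, the 3-month replicate 1, and was 1.64 without the 24-month replicates 1 and 2. Glb1 shares 165 exon bases with Tmppe on the same strand.

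Among the hydrolases, the highest microglial level per transcript length was that of Hexa, the α subunit of β-hexosaminidase, with 1052 ± 289 TPM at 24 months and 1169 ± 149 TPM at 3 months (SD, n = 3 each). Hexa was at 1329, 1134 and 1823 CPM at 24 months, against 1442, 1819 and 1465 CPM at 3 months, with no separation of the groups. Man2b1, the α-mannosidase, followed at 494 ± 92.4 TPM at 24 months and 555 ± 49.2 TPM at 3 months. Asah1, the acid ceramidase, averaged 739 ± 143 CPM at 24 months, against 718 ± 98.1 CPM at 3 months, and Ppt1, which removes palmitate from proteins, averaged 716 ± 52.7 CPM and 677 ± 97.7 CPM at these ages. Both had log2 changes within 0.1 of 0 (0.04 ± 0.21 and 0.08 ± 0.18). Gusb, the β-glucuronidase, averaged 455 ± 97.7 CPM at 24 months, against 529 ± 49.2 CPM at 3 months. Gaa, which breaks down glycogen, averaged 174 ± 45.8 CPM at 24 months, against 186 ± 29.8 CPM at 3 months. Smpd1, the acid sphingomyelinase, averaged 95.8 ± 27.2 CPM at 24 months, against 132 ± 32.4 CPM at 3 months. The sialidase gene Neu1 averaged 78.1 ± 22.4 CPM at 24 months, against 87.9 ± 34.5 CPM at 3 months. None of these 4 separated the ages.

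Tpp1, a tripeptidyl peptidase whose loss causes a childhood form of neuronal ceroid lipofuscinosis, spread more at 24 months than at 3 months. It was at 203, 384 and 527 CPM at 24 months, against 500.5, 402 and 422 CPM at 3 months. The old libraries held both the lowest and the highest value, and the log2 change was -0.25 ± 0.33, turning to 0.039 without the 24-month replicate 1 and to 0.25 without replicates 1 and 2. Of the remaining tested hydrolases, Arsa, Arsb and Man2b1 had log2 changes of -0.60 ± 0.57, -0.31 ± 0.29 and -0.15 ± 0.18, against -0.43, 0.047 and 0.062 without the 24-month replicates 1 and 2. Ids, at 18.4 ± 13.2 CPM at 24 months and 9.42 ± 8.63 CPM at 3 months, had 0.96 ± 1.51. Gla, the α-galactosidase A whose promoter holds 2 full matches, was not tested. It had 9.68 CPM in the 24-month replicate 2, listed at 0 in the other 24-month libraries and in all 3-month libraries.

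Of the cofactors, Grn encodes progranulin, a secreted protein that is cut into granulins in the lysosome, and Psap encodes prosaposin, the precursor of the saposins that lift lipids towards their hydrolases. Grn was at 1436, 1730 and 1886 CPM at 24 months, against 2750, 2517 and 2162 CPM at 3 months. No 24-month value reached a 3-month value, and the log2 change was -0.56 ± 0.18 (SE), with an unadjusted p of 0.0165 and an adjusted p of 0.755 (edgeR). Its adjusted p ran from 0.180 to 0.9999 over the settings tried, and the log2 change was -0.40 when the 24-month replicates 1 and 2 were left out. Psap was at 1344, 2710 and 3674 CPM at 24 months, against 3550, 3085 and 2911 CPM at 3 months. The old libraries again held both the lowest and the highest value, and the log2 change was -0.30 ± 0.34, or 0.20 without the 24-month replicates 1 and 2. Per transcript length these were the 2 genes of the set with the highest microglial level, at 1424 ± 690 TPM (24 months) and 1759 ± 123 TPM (3 months) for Psap and at 1178 ± 172 TPM (24 months) and 1717 ± 70.4 TPM (3 months) for Grn.

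**Figure D2:**
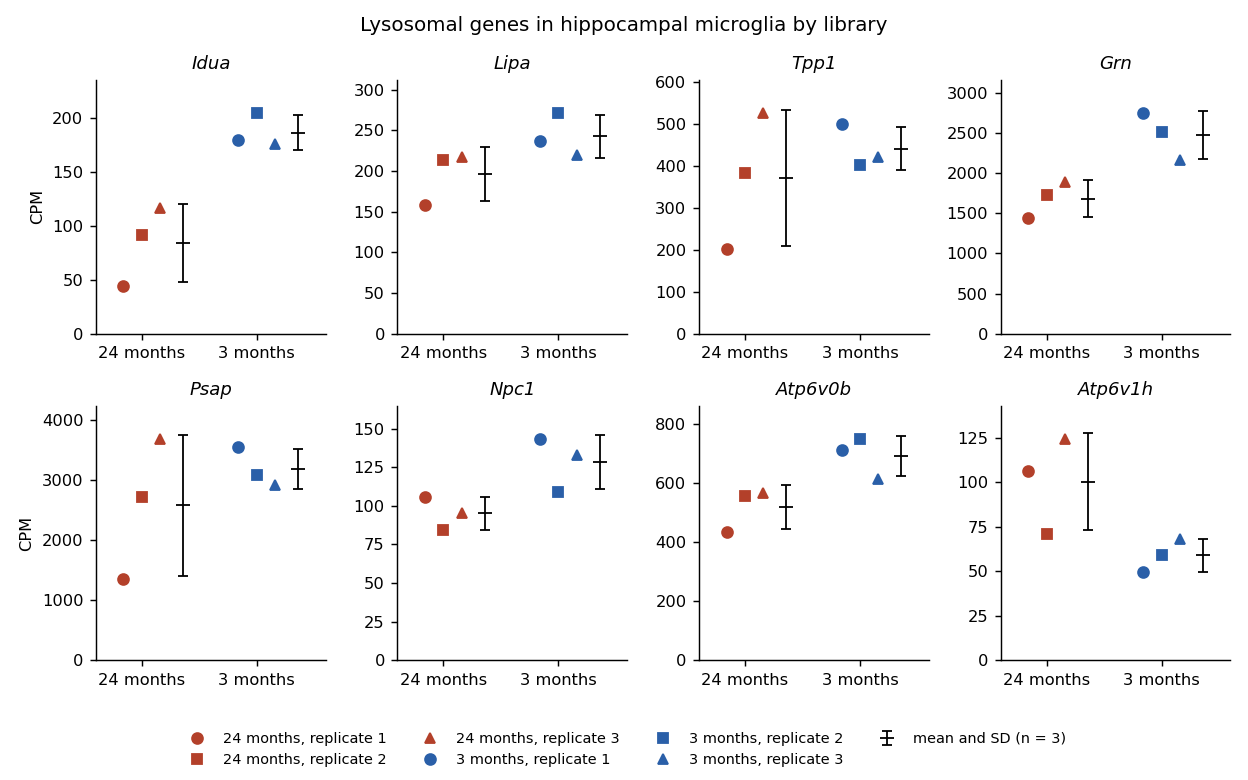
Level of 8 lysosomal genes in each microglia library (CPM, linear axis from 0), with 24-month libraries in red on the left and 3-month libraries in blue on the right; marker shapes give the replicate number and black bars the mean and SD (n = 3). Idua, Lipa, Grn, Npc1 and Atp6v0b lie lower in every 24-month library, Atp6v1h lies higher, and Tpp1 and Psap spread over a wider range at 24 months than at 3 months.

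The membrane proteins divided evenly in microglia, with 3 of 6 below 0 and 3 above it and a median log2 change of -0.09. Npc1, which exports cholesterol from the lysosome, was at 106, 84.1 and 95.3 CPM at 24 months, against 143, 109 and 133 CPM at 3 months. The groups did not overlap, and the log2 change was -0.43 ± 0.24 (adjusted p = 0.972, edgeR); it was also -0.43 with the 24-month replicates 1 and 2 left out. Npc1 shares 192 exon bases with Rmc1 on the opposite strand.

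Mcoln1, the calcium-releasing channel of the lysosomal membrane, was at 123, 113 and 70.5 CPM at 24 months, against 221, 112 and 109.9 CPM at 3 months. Only 1 young library, the 3-month replicate 1, stood above the others. The log2 change was -0.53 ± 0.37, or -1.07 without the 24-month replicates 1 and 2. Lamp1 and Lamp2, the heavily glycosylated proteins that line the membrane, averaged 277 ± 80.5 and 791 ± 165 CPM at 24 months, against 216 ± 38.7 and 680.3 ± 112 CPM at 3 months. Their log2 changes, 0.36 ± 0.26 and 0.22 ± 0.22, were above 0, opposite in sign to most hydrolases, and neither passed the test. Without the 24-month replicates 1 and 2 they were 0.76 and 0.36. Scarb2, the receptor that carries β-glucocerebrosidase to the lysosome, averaged 204 ± 82.1 CPM at 24 months, against 236 ± 36.5 CPM at 3 months. Cln3, another gene of neuronal ceroid lipofuscinosis, was at 167, 117 and 196 CPM at 24 months and at 229, 107 and 135 CPM at 3 months, with no order between the ages (log2 change 0.03 ± 0.34). Cln3 shares 442 exon bases with Apobr on the opposite strand, and reads from the 2 genes cannot be told apart there.

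The sorting receptors and regulators showed no separation of the ages in microglia. M6pr, the cation-dependent mannose 6-phosphate receptor, averaged 323 ± 54.2 CPM at 24 months, against 381 ± 48.5 CPM at 3 months. Sort1, which carries a subset of hydrolases and also takes up progranulin, averaged 144 ± 21.6 CPM at 24 months, against 178 ± 26.9 CPM at 3 months. Their log2 changes of -0.24 and -0.31 were -0.096 and -0.56 without the 24-month replicates 1 and 2. The M6pr transcript is 97.8% identical over 834 bases to that of the pseudogene M6pr-ps. Igf2r, the large cation-independent receptor, was close to the lower limit of measurement, with 1.59, 3.43 and 1.52 CPM at 24 months and 3.06, 1.75 and 0 CPM at 3 months. Tfe3 averaged 282 ± 91.8 CPM at 24 months, against 271 ± 46.8 CPM at 3 months. Tfeb was at 25.1, 14.2 and 23.7 CPM at 24 months and at 79.3, 8.60 and 28.6 CPM at 3 months. The 3-month replicate 1 set its higher young mean.

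The proton pump was close to balanced in microglia. Of 24 genes 17 were tested, 9 with a log2 change below 0 and 8 above it, and the median was -0.01. With the 24-month replicates 1 and 2 left out, 4 of the 17 were below 0 and the median was 0.16. The summed level of all 24 was 4339, 4387 and 5270 TPM at 24 months, against 4938, 5703 and 4771 TPM at 3 months, with the groups overlapping. The groups did not overlap for 1 gene below (Atp6v0b) and 1 above (Atp6v1h), against 6.18% of all genes below and 7.26% above. In the 24-month replicates 1, 2 and 3 the median pump gene was at 0.06, -0.17 and 0.22 on the log2 scale, against the mean of the 3-month libraries.

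Atp6v0b, a proteolipid of the proton-conducting ring, had the highest level in the pump, with 911 ± 143 TPM at 24 months and 1203 ± 98.7 TPM at 3 months. It was at 434, 556 and 569 CPM at 24 months, against 712, 750 and 616 CPM at 3 months, each old library below each young one. The log2 change was -0.42 ± 0.19, with an unadjusted p of 0.0570 and an adjusted p of 0.907 (edgeR), and -0.29 without the 24-month replicates 1 and 2. Atp6v0c, the other ring proteolipid, was at 656, 624 and 656 CPM at 24 months, against 792, 783 and 548 CPM at 3 months. It did not separate the ages (log2 change -0.13 ± 0.19), and its transcript is 99.8% identical over 465 bases to that of the pseudogene Atp6v0c-ps2. Atp6v0d1, the subunit that joins the ring to the stalk, averaged 75.6 ± 24.1 CPM at 24 months, against 94.8 ± 10.4 CPM at 3 months. Of the large a subunits, Atp6v0a1 averaged 99.2 ± 33.4 CPM at 24 months, against 120 ± 45.1 CPM at 3 months, and Atp6v0a2 averaged 312 ± 80.8 CPM and 361 ± 61.8 CPM at these ages.

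By sector, 6 of 9 tested V1 genes and 1 of 6 tested V0 genes had a log2 change above 0 in microglia. In hippocampus these were 6 of 10 and 3 of 7. Without the 24-month replicates 1 and 2, Atp6v0a1, Atp6v0a2, Atp6v0d1 and Atp6v0e were at 0.15, 0.16, 0.087 and 0.21 in microglia. Atp6v0b and Atp6v0c were then at -0.29 and -0.11, and in V1 only Atp6v1a (-1.48) and Atp6v1f (-0.27) lay below 0. The split by sector was not tested. Atp6v1h, a regulatory subunit of V1, was at 106, 70.8 and 124 CPM at 24 months, against 49.3, 59.2 and 67.9 CPM at 3 months, each old library above each young one. The log2 change was 0.77 ± 0.33, with an unadjusted p of 0.0507 and an adjusted p of 0.898 (edgeR), and 1.07 without the 24-month replicates 1 and 2. Atp6v1h shares 127 exon bases with Rgs20 on the opposite strand. Atp6v1a, the catalytic A subunit, was at 185, 88.8 and 22.0 CPM at 24 months, against 70.6, 59.1 and 54.9 CPM at 3 months. The old libraries lay on both sides of the young ones, and the log2 change of 0.68 ± 0.66 turned to -0.16 without the 24-month replicate 1 and to -1.48 without replicates 1 and 2. Atp6v1b2, the B subunit that pairs with it, averaged 287 ± 37.8 CPM at 24 months, against 289 ± 62.4 CPM at 3 months. Atp6v1c1 averaged 341 ± 16.5 CPM at 24 months, against 271 ± 55.3 CPM at 3 months (log2 change 0.33 ± 0.20), and Atp6v1g1 averaged 315 ± 42.9 CPM and 301 ± 13.004 CPM at these ages. The accessory proteins Atp6ap1 and Atp6ap2 averaged 682 ± 239 and 385 ± 68.0 CPM at 24 months, against 808 ± 229 and 359 ± 45.8 CPM at 3 months. Neither separated the ages.

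Several pump subunits have a second form that is used in other tissues, and these were low in microglia. Atp6v1g2, the form used by neurons, had 16.3, 0.807 and 5.03 CPM at 24 months, against 0.149, 0 and 3.54 CPM at 3 months. Atp6v0d2, the form known from osteoclasts and macrophages, had 10.8 CPM in the 24-month replicate 2 and 0 to 0.0949 CPM in the other 24-month libraries, against 0 to 0.477 CPM at 3 months, and was not tested. Atp6v1c2 and Atp6v1g3 stayed at or below 1.12 CPM and were not tested. Atp6v0a4, Atp6v0e2, Atp6v1b1 and Atp6v1e2 were listed at 0 in all 6 libraries.

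**Figure D3:**
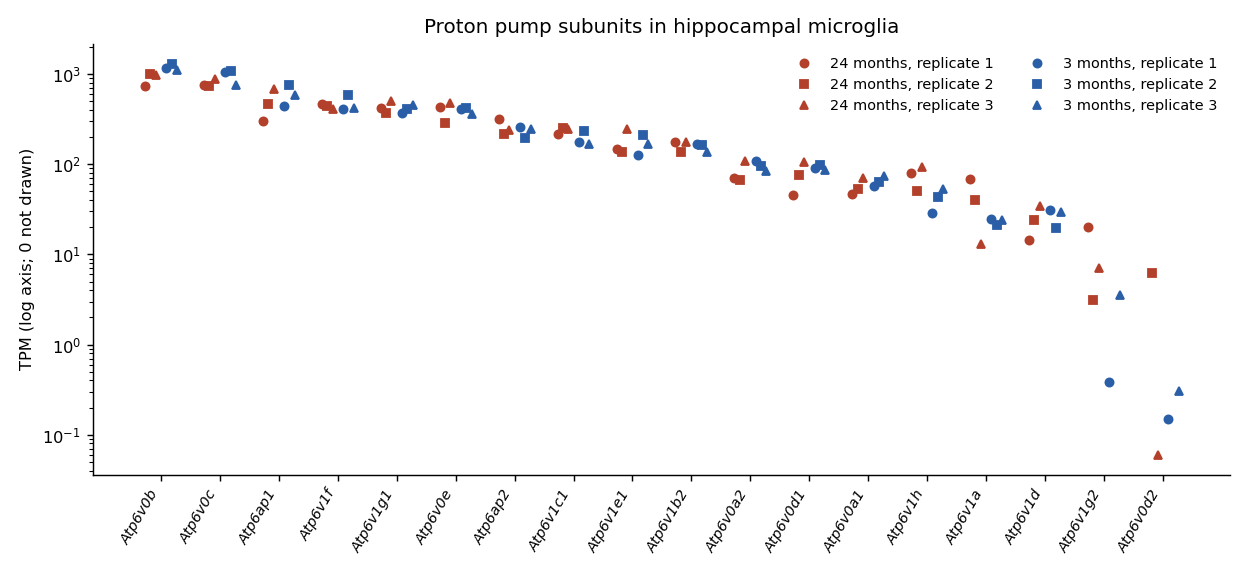
Level of each pump gene with a mean of at least 1 TPM in microglia (y axis, TPM on a log scale, zeros not drawn), with 24-month libraries in red to the left of 3-month libraries in blue and marker shapes for replicates; genes run from the highest to the lowest mean. Atp6v0b and Atp6v0c lead, most subunits overlap between ages, Atp6v1a spreads widely at 24 months, and Atp6v1g2 and Atp6v0d2 lie far below the rest.

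**Figure D4:**
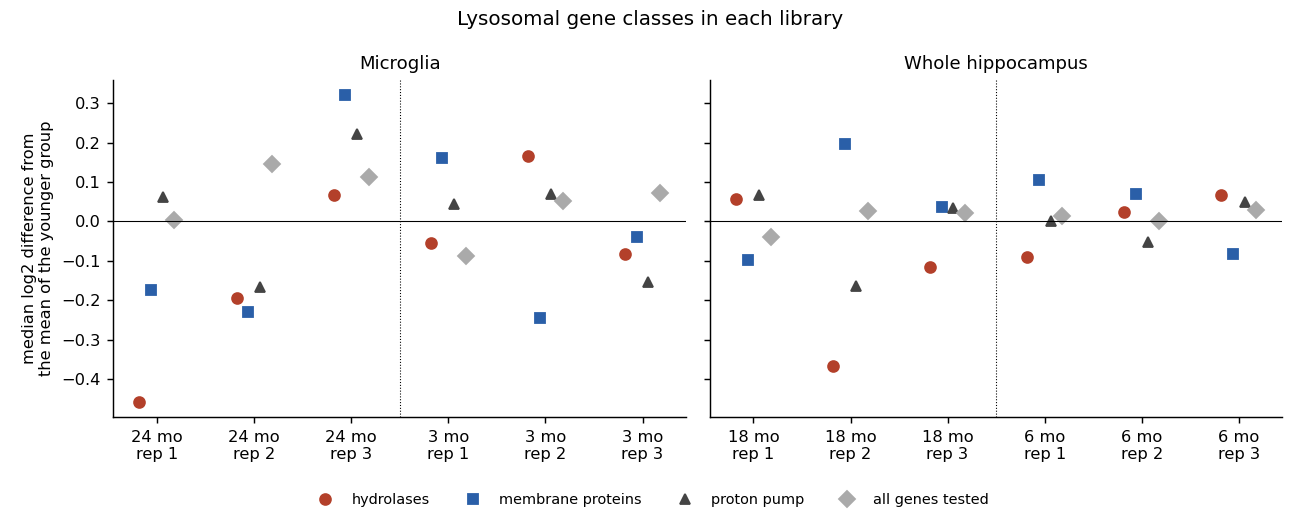
Median log2 difference of each class from the mean of the younger group, in each library of microglia (left) and whole hippocampus (right), older libraries left of the dotted line; grey diamonds give the median of all genes tested. The hydrolase median is lowest in the 24-month replicate 1 in microglia (-0.46) and in the 18-month replicate 2 in hippocampus (-0.37), and in neither tissue do all 3 older libraries lie below the younger ones for any class drawn.

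In whole hippocampus, where lysosomal RNA comes from neurons and all glia together, no gene of the set passed the test between 18 and 6 months either. All 49 genes of the set in the table were tested, and limma's moderated test on log2(normalized count + 1) called 0 higher and 0 lower, with 0.877 as the smallest adjusted p. It called 0 of all 13491 genes, a background of 0% in either direction. At an unadjusted p under 0.05 it gave 1 as lower and 0 as higher, against 3.24% and 2.13% of all genes. The authors' deposited table for this tissue, which calls 22 genes lower (0.186%) and 14 higher (0.118%), calls 0 of them, with 0.427 as the smallest adjusted p, for Atp6ap2. In bulk tissue, fewer cells of a type and less RNA per cell cannot be told apart. The log2 change (18 minus 6 months) was below 0 for 25 of the 49, against 52.8% of all genes, with a median of -0.01, against -0.04 over all genes. By class the medians were 0.00 for the hydrolases (8 of 17 below 0), -0.03 for the membrane proteins (4 of 6) and -0.03 for the pump (10 of 19). Markers of the choroid plexus, a tissue that borders the hippocampus, summed to 3522, 10956 and 239 normalized counts in the 18-month replicates 1 to 3, against 132, 6898 and 2289 at 6 months, with overlap between the ages. The sums of 2 lists separated the ages. The 12 neuron markers, all above 0 in every library, were at 17202, 16981 and 17110 normalized counts at 18 months, against 16555, 15049 and 15670 at 6 months. Camk2a alone gave 9209, 8897 and 8408 of this sum at 18 months, against 7986, 6904 and 7519 at 6 months. Camk2a and Rbfox3 lay higher in every 18-month library, and Eno2 and Slc17a7 lay lower. The groups of the other neuron markers overlapped. The 18 microglia markers, 17 of them above 0 in every library, were at 1105, 1196 and 1209 at 18 months, against 1041, 956 and 844 at 6 months. The part of these lists in the values of the set was not tested.

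Levels of the proton pump genes in hippocampus were mostly close between the ages. Atp6v1b2 was at 1024, 865 and 1037 normalized counts at 18 months, against 973, 917 and 1020.2 at 6 months (log2 change 0.00 ± 0.13). Atp6v1a averaged 816 ± 63.6 normalized counts at 18 months and 833 ± 29.8 at 6 months, Atp6v0c averaged 1459 ± 70.8 and 1430.2 ± 105 at these ages, and Atp6v0a1 averaged 333 ± 69.9 and 324 ± 18.3. Atp6v0d1 averaged 295 ± 51.9 normalized counts at 18 months and 318 ± 21.8 at 6 months. None of these 5 had a log2 change further than 0.12 from 0. The 18-month replicate 2 alone held the lowest value of 9 of the 19 pump genes (47.4%), against 17.0% of all genes tested, and for Atp6v1c2 it tied at 0 with other libraries. The same library had the highest choroid plexus sum and the lowest sum of the 13 mitochondrial mRNAs, at 38071 normalized counts, against 57241 and 70736 in the other 18-month libraries and 63631 to 78827 at 6 months; the part of either was not tested.

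Atp6ap2, an accessory subunit also known as the prorenin receptor, had the smallest p of the set in hippocampus. It was at 266, 321 and 466 normalized counts at 18 months, against 460.3, 483 and 517 at 6 months. The third old library lay just above the lowest young one. The log2 change was -0.51 ± 0.19, with an unadjusted p of 0.0190 and an adjusted p of 0.877 (limma), which ran from 0.337 to 0.999 over the settings tried. Its transcript is 98.4% identical over 438 bases to that of the pseudogene Gm36448. Atp6v1g1, a stalk subunit, was at 197, 203 and 169 normalized counts at 18 months, against 149, 150.1 and 158 at 6 months, each old library above each young one. Its log2 change was 0.31 ± 0.19 (adjusted p = 0.913, limma), and non-overlapping genes of this direction made up 5.03% of all genes. The Atp6v1g1 transcript is 99.4% identical over 357 bases to that of the pseudogene Gm13453, and 95.8% over 287 bases to that of Gm12344. Atp6v0a2 was at 44.9, 52.9 and 58.1 normalized counts at 18 months, against 26.9, 28.6 and 54.8 at 6 months, with 1 young library among the old ones (log2 change 0.55 ± 0.38). Atp6ap1 averaged 558 ± 114 normalized counts at 18 months and 564 ± 50.5 at 6 months.

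Of the 8 forms of the pump that were low or listed at 0 in microglia, Atp6v1g2 and Atp6v0e2 were clearly detected here in every library. Atp6v1g2 was at 811, 788 and 821 normalized counts at 18 months, against 766, 726 and 857 at 6 months, and Atp6v0e2 was at 698, 478 and 756 at 18 months, against 855, 670 and 702 at 6 months. Neither separated the ages (log2 changes 0.05 ± 0.13 and -0.22 ± 0.18). Atp6v1c2 was low, at 11.2, 0 and 0 normalized counts at 18 months, against 0, 1.61 and 4.43 at 6 months. These are values of 1 gene on the scale of this table and are not set against microglial CPM. Gla, Atp6v0a4, Atp6v0d2, Atp6v1b1, Atp6v1e2 and Atp6v1g3 were not analysed here in hippocampus.

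Of the hippocampal hydrolases, Arsb, the arylsulfatase that acts on dermatan sulfate, was at 135, 96.6 and 137 normalized counts at 18 months, against 154, 167 and 172 at 6 months. The groups did not overlap (5.93% of all genes lay below in this way), and the log2 change was -0.43 ± 0.21 with an adjusted p of 0.909 (limma). Arsb shares 1948 exon bases with Gm26527 on the opposite strand. Glb1 was at 34.1, 27.6 and 6.21 normalized counts at 18 months, against 26.6, 65.1 and 29.9 at 6 months, a wide spread of a low gene (log2 change -0.99 ± 0.63). Tpp1 averaged 87.7 ± 25.8 normalized counts at 18 months and 67.6 ± 9.004 at 6 months, and Smpd1 averaged 119 ± 26.5 and 145 ± 40.0 at these ages. Idua and Lipa, which lay lower at 24 months in microglia, averaged 20.9 ± 7.57 and 41.6 ± 11.5 normalized counts at 18 months here, against 26.6 ± 6.98 and 30.9 ± 8.76 at 6 months, both with overlapping groups. Hexa averaged 94.7 ± 28.2 normalized counts at 18 months and 86.2 ± 6.25 at 6 months, and Gaa averaged 520.0 ± 110 and 498 ± 77.3. Gusb averaged 24.0 ± 13.3 at 18 months and 21.9 ± 2.80 at 6 months, Neu1 91.3 ± 41.5 and 85.4 ± 20.2, Asah1 74.3 ± 35.8 and 90.0 ± 14.2, and Ppt1 176 ± 30.8 and 197 ± 6.13. None of these 6 passed the test.

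Grn, lower in every old microglia library, was at 158, 64.4 and 97.7 normalized counts in hippocampus at 18 months, against 97.2, 134 and 96.3 at 6 months. The old libraries held both the highest and the lowest value (log2 change -0.11 ± 0.31). Psap was at 1523, 1793 and 1391 normalized counts at 18 months, against 1289, 1533 and 1495 at 6 months (log2 change 0.12 ± 0.13). The 2 tissues were sampled at different ages and tested on different scales, so no test of their difference was made.

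Among the membrane proteins of the hippocampus, Lamp1 was at 278, 333 and 411 normalized counts at 18 months, against 370, 186 and 218 at 6 months. One young library lay among the old ones, and the log2 change was 0.45 ± 0.24 (unadjusted p = 0.0830, limma's moderated test). Lamp2 averaged 120 ± 21.9 normalized counts at 18 months and 124 ± 35.2 at 6 months, Mcoln1 124 ± 13.1 and 119 ± 14.2, Scarb2 58.0 ± 4.59 and 64.8 ± 7.42, and Npc1 51.0 ± 25.8 and 47.5 ± 8.40. Cln3 was low, with 6.11, 11.2 and 24.5 normalized counts at 18 months and 19.0, 23.5 and 14.2 at 6 months. Of the sorting receptors, M6pr averaged 131 ± 20.4 normalized counts at 18 months and 160.3 ± 23.8 at 6 months, Sort1 179 ± 24.7 and 179 ± 33.5, and Igf2r 32.6 ± 17.5 and 22.4 ± 4.02. Tfe3 averaged 35.4 ± 11.7 normalized counts at 18 months and 34.9 ± 8.63 at 6 months, and Tfeb 4.76 ± 5.48 and 4.72 ± 4.39. None of these genes passed the test.

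**Figure D5:**
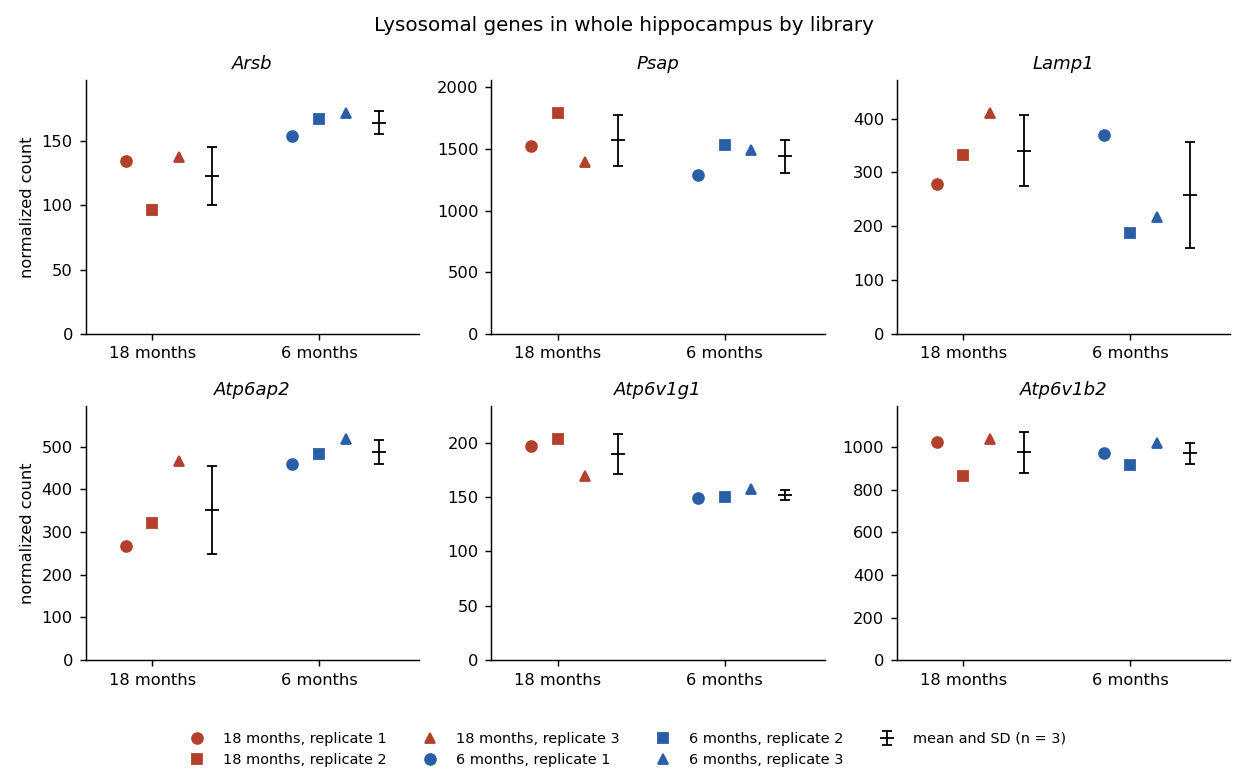
Level of 6 lysosomal genes in each hippocampus library (normalized counts, linear axis from 0), with 18-month libraries in red on the left and 6-month libraries in blue on the right; marker shapes give the replicate number and black bars the mean and SD (n = 3). Arsb lies lower and Atp6v1g1 higher in every 18-month library, while Atp6v1b2 and Psap overlap between the ages.

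The rest of the pathway was read from 5 lists of genes that are not in the set. Other lysosomal enzymes, other membrane proteins, the mannose 6-phosphate tagging and delivery machinery, the control of Tfeb and nutrient sensing, and pump assembly had 34, 32, 30, 21 and 10 genes tested in microglia. The test called 0 of them in either direction. Below 0 were 19, 17, 16, 12 and 6 of them, against 49.5% of all genes, with medians of -0.17, -0.05, -0.09, -0.07 and -0.43. In the same order, the groups did not overlap for 2, 5, 0, 2 and 1 genes that lay lower. For 3, 0, 1, 0 and 0 genes they lay higher without overlap. Of all genes, 6.18% lay lower and 7.26% higher in this way. In hippocampus 34, 32, 30, 23 and 12 genes were tested and 0 called, with 10, 16, 15, 12 and 8 of them below 0 and medians of 0.21, -0.02, -0.01, -0.03 and -0.13, against 52.8% of all genes below 0. In the same order, the hippocampal groups did not overlap for 0, 1, 2, 0 and 1 genes that lay lower. For 5, 1, 0, 2 and 1 genes they lay higher without overlap. Of all genes in hippocampus, 5.93% lay lower and 5.03% higher in this way.

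Lyz2, the macrophage lysozyme, had the smallest p of these lists in microglia and the opposite direction to most hydrolases. It was at 1059, 680 and 798 CPM at 24 months, against 280, 409 and 231 CPM at 3 months, each old library above each young one. The log2 change was 1.46 ± 0.28 with an adjusted p of 0.539 by edgeR. DESeq2 called it, with an adjusted p of 0.00424, and so does the authors' deposited table, with 0.00489; over all settings tried the adjusted p ran from 0.00424 to 0.9999. It was 1.38 with the 24-month replicates 1 and 2 left out. In hippocampus Lyz2 was at 35.8, 32.0 and 31.1 normalized counts at 18 months, against 19.0, 20.2 and 19.98 at 6 months, again without overlap (log2 change 0.71 ± 0.45, adjusted p = 0.913, limma). The summed microglia markers separated the hippocampal ages in the same direction, as given above, and their part in this value was not tested. Lyz1, a close paralog, can share reads with Lyz2.

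The other enzymes named by smallest p in microglia had lower means at 24 months. Pla2g15, a lysosomal phospholipase, was at 537, 578 and 831 CPM at 24 months, against 936, 1013 and 1002 CPM at 3 months, and Man2b2, an α-mannosidase, was at 85.7, 206 and 247 CPM, against 373, 312 and 291 CPM. Neither gene's groups overlapped (log2 changes -0.60 ± 0.21 and -0.85 ± 0.37, and -0.25 and -0.40 without the 24-month replicates 1 and 2). The same held for the membrane proteins Slc15a4, a histidine and peptide transporter (-1.02 ± 0.32), Tmem63a, an ion channel (-0.68 ± 0.26), and Slc29a3, a nucleoside transporter (-0.51 ± 0.24), which were at -0.84, -0.38 and -0.11 without that pair of libraries. In nutrient sensing Lamtor1, which anchors the Ragulator complex to the lysosome, was lower in every old library (-0.65 ± 0.28), as was Tmem199, a pump assembly factor (-1.05 ± 0.59); without the same pair they were at -0.31 and -0.29. Xpo1, the exportin that moves Tfeb out of the nucleus, and Fnip1, a partner of folliculin, were at 98.98 and 71.7 CPM in the 24-month replicate 1 and at 67.4 and 61.6 CPM in replicate 2, the libraries with high immediate early genes, but at 21.0 and 5.70 CPM in replicate 3, against at most 24.9 and 8.37 CPM at 3 months. Nagpa, which uncovers the mannose 6-phosphate tag, had a log2 change of -0.78 ± 0.32, and the trafficking genes Ap3m1 and Vps26a had 1.08 ± 0.46 and 0.54 ± 0.26. Ccdc115 and Dmxl1, both of pump assembly, had -0.86 ± 0.50 and 2.34 ± 1.56. None of these genes passed the test.

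In hippocampus the lowest p of any list belonged to Wdr7, a partner of the Dmxl proteins in the complex that reassembles the pump's sectors. Wdr7 was at 101, 58.2 and 88.3 normalized counts at 18 months, against 205, 291 and 208 at 6 months, and its groups did not overlap. The log2 change was -1.52 ± 0.25, with an adjusted p of 0.155 by limma that ran from 0.102 to 0.850 over the settings tried. In the authors' deposited table its adjusted p is 1.86e-06. Its partner Dmxl1 averaged 18.8 ± 4.19 normalized counts at 18 months and 14.2 ± 7.19 at 6 months. In microglia Wdr7 was low, at 0, 9.48 and 2.75 CPM at 24 months and 20.3, 0 and 7.42 CPM at 3 months.

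Other hippocampal genes named by smallest p had log2 changes of both signs. Slc15a4, lower at 24 months in microglia, was at 71.1, 71.1 and 39.3 normalized counts at 18 months, against 13.5, 25.8 and 28.8 at 6 months, without overlap (log2 change 1.39 ± 0.44). Fuca1, the α-fucosidase (0.59 ± 0.29), and Flcn, folliculin (0.70 ± 0.29), were also higher in every old library, as was Fnip1 (1.02 ± 0.53). Ostm1 and Clcn7, the subunits of the lysosomal chloride-proton exchanger, had log2 changes of opposite sign, 0.79 ± 0.31 and -0.76 ± 0.33, each with overlapping groups. Sumf1, which activates sulfatases (-2.19 ± 1.03), Cpq, a carboxypeptidase (-2.19 ± 1.04), and Tsc2 (3.06 ± 1.28) each had a library at 0. Vps41 and Gga2, both of vesicle traffic, had -0.42 ± 0.24 and 0.99 ± 0.68, and Oxr1 and Ncoa7, relatives that act on the pump, had -0.61 ± 0.29 and -0.80 ± 0.54. None of these genes passed limma's test.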

How the data were processed

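RNA was isolated with Trizol, and 5 ng was reverse transcribed and amplified in 12 PCR cycles, per the labels' protocols. Kallisto, DESeq and DESeq2 and the builds GRCm39 and mm10 are named in the submitters' processing notes, without versions or roles. For microglia the authors deposited TPM and estimated counts per gene, per the file headers. For hippocampus they deposited normalized counts, a signal scaled between samples, whose depth is unknown. Their comparison tables also give log2 fold changes, a Wald statistic (a score, not used), p-values and adjusted p-values, per the file headers; the deposited hippocampus log2 values run 6 over 18 months and were turned round.

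After rounding to integers, estimated counts entered edgeR 4.0.16 (R 4.3.3; TMM, filterByExpr, 10663 genes). CPM are on TMM-scaled library sizes. Counts and folds are relative within a library. The planned fallback for a table without counts was used in hippocampus: limma 3.58.1 with a mean trend on log2(value + 1), for genes of at least 1 in at least 3 samples; folds of low genes are understated on this scale. Tests were two-sided, with Benjamini-Hochberg adjustment over all genes and a threshold of 0.05. An exact permutation test of 3 against 3 cannot go below p = 0.10. The genes, lists and tests were chosen with earlier results of these data known. Genes named were fixed by symbol, by smallest p within a class or list, or by groups that do not overlap. 1 gene named by this rule is not reported here. DESeq2 1.42.0, other scalings, filters and pseudocounts, a replicate term and left-out libraries were alternatives.

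The entry without a gene name (0.0546% to 0.0771% of microglia counts, 0.0233% to 0.0335% of hippocampus signal) was left out. Of low hippocampus values, 13.2% to 47.5% were whole multiples of what 1 read would be worth (tolerance 0.1), too few to recover reads. Same-numbered libraries did not deviate together (correlations of -0.027 to 0.0649 in microglia and 0.00941 to 0.0142 in hippocampus). Exon overlaps and transcripts at least 95% identical over at least 200 bases were read from GENCODE vM21 (GRCm38); 16 and 7 of the genes had one. Scripts were tested on simulated data.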

Additional observations from a re-analysis of the deposited data

How the results depend on the processing

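No gene of the set was called in either tissue under any of the alternatives. The number of microglia libraries, and 2 among them with high immediate early genes, limit what can be read: with the 24-month replicates 1 and 2 left out (values only, as 1 old library remains), the microglia counts were 17 genes below 0 and 24 outside the range of the young libraries (51.1% of those tested, against 40.9% of all genes), and the medians were 0.062 for hydrolases, 0.29 for membrane proteins, 0.16 for the pump and 0.087 for all. With replicate 1 of both ages left out, 14 genes did not overlap (29.8%, against 35.1% of all genes) and the membrane protein median was 0.20. With all libraries kept, 6 genes of the set did not overlap in microglia (12.8%, against 13.4% of all genes). In hippocampus 2 did not (4.08%), a lower share than that of all genes. Leaving out each library in turn leaves fewer samples to overlap. It gave 9 to 17 non-overlapping genes in microglia (19.1% to 36.2%, against 20.3% to 30.6% of all genes). In hippocampus it gave 3 to 7 (6.25% to 14.6%, against 18.9% to 24.7% of all genes). It gave microglia medians of -0.32 to -0.098 for all genes of the set. In hippocampus it gave medians of -0.17 to -0.013 for hydrolases, -0.18 to 0.017 for membrane proteins and -0.087 to 0.023 for all. The replicate block called 0 genes of the set in both tissues. At an unadjusted p under 0.05 (edgeR and limma), 1 microglia gene and 1 hippocampus gene were lower. The share of all genes under this setting is not given. Without the block, the share of all genes lower was 2.02% in microglia and 3.24% in hippocampus. The labels do not say what a shared replicate number marks, and this was not tested. Lyz2, outside the set, passed with DESeq2 (adjusted p = 0.00424), and the cause was not tested.

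Single genes whose log2 change was small or variable changed sign, 52 times over 21 genes in microglia and 44 times over 18 genes in hippocampus; none of these values was called, and the cause was not tested. In microglia this held with the 24-month replicates 1 and 2 left out for Atp6ap1 (0.21), Atp6v0a1 (0.15), Atp6v0d1 (0.087), Atp6v1a (-1.48), Atp6v1b2 (0.11), Gaa (0.14), Gusb (0.095), Hexa (0.21), Igf2r (-0.076), Naglu (0.0073), Neu1 (0.064), Psap (0.20), Scarb2 (0.26), Tfe3 (-0.11) and Tpp1 (0.25). With replicate 1 of both ages left out it held for Atp6v1a (-0.035), Atp6v1b2 (0.066), Psap (0.092), Scarb2 (0.14), Tfe3 (-0.35), Tfeb (0.026) and Tpp1 (0.15). Without the filter on low counts it held for Cln3 (-0.00098), with the transcript length offset for Atp6v1b2 (0.068) and Cln3 (-0.010), and with the replicate block for Atp6v1b2 (0.00030). Leaving out each microglia library in turn, the ranges that cross 0 were those of Asah1 (-0.095 to 0.18), Atp6ap2 (-0.049 to 0.20), Atp6v1a (-0.16 to 1.13), Atp6v1b2 (-0.19 to 0.10), Atp6v1g1 (-0.047 to 0.16), Cln3 (-0.20 to 0.40), Gaa (-0.26 to 0.098), Igf2r (-0.16 to 1.33), Neu1 (-0.40 to 0.17), Ppt1 (-0.036 to 0.17), Scarb2 (-0.55 to 0.052), Tfe3 (-0.24 to 0.23), Tfeb (-1.37 to 0.17) and Tpp1 (-0.62 to 0.039). In hippocampus the sign changed with a pseudocount of 5 for Tfeb (-0.012) and with TMM scaling for Atp6v1b2 (-0.0083), Neu1 (-0.0084) and Sort1 (-0.0070). Leaving out each hippocampus library in turn, the ranges that cross 0 were those of Atp6ap1 (-0.14 to 0.15), Atp6v0a1 (-0.10 to 0.20), Atp6v0c (-0.024 to 0.081), Atp6v0d1 (-0.23 to 0.025), Atp6v1a (-0.069 to 0.033), Atp6v1b2 (-0.042 to 0.089), Atp6v1g2 (-0.0065 to 0.11), Gaa (-0.080 to 0.24), Grn (-0.44 to 0.20), Gusb (-0.40 to 0.51), Hexa (-0.11 to 0.33), Lamp2 (-0.28 to 0.13), Mcoln1 (-0.014 to 0.15), Neu1 (-0.29 to 0.43), Npc1 (-0.37 to 0.45), Sort1 (-0.12 to 0.14), Tfe3 (-0.19 to 0.29) and Tfeb (-0.87 to 0.77).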
